A study of Macaca mulatta with 4 samples.

Results

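Blood mononuclear cells from a macaque study of human islet grafts, made from chemically induced pluripotent stem cells, were profiled by single-cell RNA sequencing before and after the transplant. The cells described here are those that the authors' deposited annotation labels "B cell", leaving out those it labels "Naive B cell". They were 655 of 6993 labelled rhesus macaque (Macaca mulatta) cells. There were 4 libraries, 1 for each time: Pre-IS was drawn before immunosuppression, Post-IS after immunosuppression and before the transplant, and 4 wpt and 8 wpt at 4 and 8 weeks post-transplantation. The label "B cell" was carried by 351 cells at Pre-IS, 12 at Post-IS, 114 at 4 wpt and 178 at 8 wpt, and the label "Naive B cell" by a further 110, 1, 14 and 99 cells. The sample labels name neither the immunosuppressive agents nor the animal behind each library, and give no age. Because each time is 1 library, no test between times was possible: the cells of a library are not replicates, and every interval below is a 95% interval that covers counting error only, not the spread between animals or blood draws.

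B cells are the lymphocytes that become antibody-secreting cells. Their antigen receptor is a membrane immunoglobulin held by the signalling chains CD79A and CD79B. Coreceptors raise or lower its signal, CD22 and CD72 being among those that lower it, and kinases and adaptors carry the signal into the cell. Naive B cells carry this machinery together with receptors such as FCER2, memory B cells and the atypical memory cells that express T-bet carry other surface and cytoskeletal genes, and plasmablasts turn much of their transcription to secreted antibody.

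Transcripts were counted by UMIs, the molecular barcodes that mark single RNA copies. B cells held 579390 UMIs at Pre-IS, 27194 at Post-IS, 482555 at 4 wpt and 403752 at 8 wpt, out of 3356133, 791030, 6910432 and 5482144 in the libraries. A B cell had a median of 1512 UMIs at Pre-IS, 3890 at 4 wpt and 2134.5 at 8 wpt, so depth differed with time. Between 0 and 12 cell barcodes were shared by any pair of libraries, and none of the shared barcodes was a B cell in both. Gene levels are given as counts per 1000000 UMIs of all B cells in that library (CPM), and Post-IS, with 12 B cells, was used for shares only. In these sums a count of 0 allows up to 3 UMIs, which is 5.18 CPM at Pre-IS, 6.22 at 4 wpt and 7.43 at 8 wpt. Mitochondrial genes took 0.721%, 1.07% and 0.811% of the B cell UMIs at these times.

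The label was checked against 4 B cell genes: MS4A1 (the surface protein CD20), CD79A, CD79B and BANK1, a scaffold protein of receptor signalling. At least 1 UMI of them was found in 98.6% of B cells at Pre-IS, 91.7% at Post-IS, 96.5% at 4 wpt and 97.2% at 8 wpt, and UMIs of at least 2 of them in 95.4%, 83.3%, 95.6% and 94.4%. Most B labelled cells thus held these markers at each time. The labels may rest on the expression of these same cells, so this is not an independent check. Cells of other labels also gave marker UMIs: at least 1 marker was found in 7 of 9 NK cells at Post-IS and in 17.0% of NK cells at 4 wpt. At least 2 markers were found in 0% and 1.85% of these NK cells. The B labelled cells with none of the 4 markers numbered 5, 1, 4 and 5, and they held 58 of 69 UMIs of PLAC8 and 12 of 33 of DERL3 at 8 wpt and 46 of 310 of JCHAIN at 4 wpt, genes described below.

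The B cell share of the labelled cells was lowest at Post-IS and had partly come back at both later times. It was 18.2% at Pre-IS (351 of 1928 cells, Clopper-Pearson interval 16.5 to 20.002%) and 1.99% at Post-IS (12 of 603, 1.03 to 3.45%). At 4 wpt it was 6.06% (114 of 1882, 5.02 to 7.23%) and at 8 wpt 6.90% (178 of 2580, 5.95 to 7.95%). The Post-IS share was 9.15-fold lower than the Pre-IS share (5.17 to 17.9). The 4 wpt share was 3.04-fold higher than at Post-IS (1.68 to 6.06) and the 8 wpt share 3.47-fold higher (1.94 to 6.84), and they stayed 3.01-fold (2.43 to 3.75) and 2.64-fold (2.20 to 3.18) below Pre-IS. From 4 to 8 wpt the ratio was 1.14, with an interval of 0.895 to 1.45 that includes no difference.

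The return depended on what the share was taken of. Among lymphocytes (T, NK, B, naive B and proliferating cells), B cells made up 22.4% at Pre-IS (20.4 to 24.5%), 8.63% at Post-IS (4.54 to 14.6%, 12 of 139 cells), 8.58% at 4 wpt (7.13 to 10.2%) and 8.32% at 8 wpt (7.18 to 9.57%). On this scale the Post-IS share was 2.59-fold lower than Pre-IS, and the ratios to Post-IS were 0.994 at 4 wpt (0.548 to 1.98) and 0.963 at 8 wpt (0.538 to 1.90). The lower share relative to Pre-IS was thus present with both denominators, while the higher share relative to Post-IS appeared only among all labelled cells. A share does not tell fewer B cells apart from more cells of other types.

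Among all labelled cells, the shares of the 2 B labels took different courses. How the line between the labels was drawn in each library is not given. Naive B cells were 5.71% of all labelled cells at Pre-IS, 0.166% at Post-IS (1 cell), 0.744% at 4 wpt and 3.84% at 8 wpt. The naive ratio of 4 wpt to Post-IS was 4.49, with an interval of 0.682 to 190 that includes no difference. The naive share was 7.67-fold below Pre-IS at 4 wpt (4.38 to 14.5) and 1.49-fold below it at 8 wpt (1.12 to 1.97), and from 4 to 8 wpt it was 5.16-fold higher (2.93 to 9.78), against the ratio of 1.14 for B cells. Within the B lineage, the label "B cell" therefore took 76.1% of cells at Pre-IS (72.0 to 80.0%), 12 of 13 at Post-IS, 89.1% at 4 wpt (82.3 to 93.9%) and 64.3% at 8 wpt (58.3 to 69.9%). The 4 wpt share lay above the Pre-IS interval and the 8 wpt share below it.

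**Figure D1:**
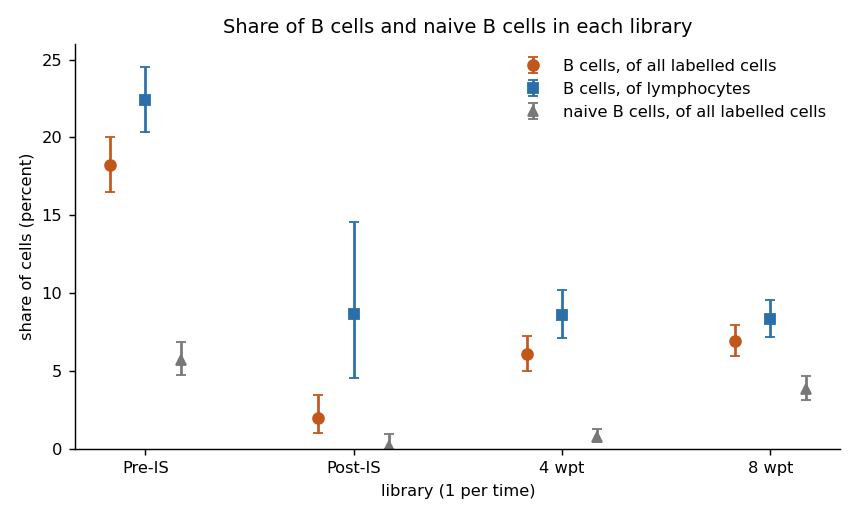
Share of cells (percent, y axis) in each of the 4 libraries (x axis) for B cells of all labelled cells, B cells of lymphocytes and naive B cells of all labelled cells; points are shares and bars 95% Clopper-Pearson intervals. B cells go from 18.2% to 1.99% of all cells and stand at 6.06% and 6.90% after the transplant, while naive B cells go from 0.744% at 4 wpt to 3.84% at 8 wpt.

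The genes that told B cells from naive B cells are given as a description only. How the labels were made is not given, and they may rest on the expression of these same cells. ITGAX, the integrin CD11c of atypical memory B cells, stood at 435 CPM in B cells against 12.6 in naive B cells at Pre-IS, and at 452 and 421 in B cells at 4 and 8 wpt. FGR, a Src family kinase, stood at 307, 336 and 290 CPM in B cells across the 3 times and at 0, 0 and 5.65 in naive B cells. TBX21, which encodes T-bet, was at 55.2 CPM against 6.30 in naive cells at Pre-IS. B cells thus carried genes of the atypical memory list at the 3 times read, before immunosuppression as well as after the transplant. Of these genes, only FGR is set against naive cells here at all 3 times. The calcium-binding S100A10 was at 2496, 2489 and 2479 CPM in B cells against 214, 301 and 288 in naive cells, and S100A4 at 1291, 1475 and 1375 against 63.0, 64.5 and 84.8. TNFRSF13B, the receptor TACI, was at 154 CPM against 12.6 at Pre-IS, and the chemokine receptor CXCR3 at 107 against 0.

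In the other direction, FCER2, the low-affinity IgE receptor CD23, was at 41.4, 10.4 and 37.2 CPM in B cells and at 385, 215 and 356 in naive cells. TCL1A, a kinase coactivator of immature and naive B cells, gave 4, 0 and 0 UMIs in B cells, and 170, 86.0 and 141 CPM in naive cells. Both naive genes were thus low in B cells at all times. CD72 and CD79B were also lower in B cells than in naive cells, at 214 against 561 CPM and 1648 against 2502 CPM at Pre-IS.

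Gene levels of B cells at 4 and at 8 wpt were each set against Pre-IS, and the 2 comparisons share the Pre-IS library, so they are given side by side and not as support of each other. A gene was counted as higher or lower when its CPM differed by at least 1.5-fold (with 0.5 UMIs added to each library), among genes whose UMIs summed to 20 or more over the pair of libraries, which are called measured. At 4 wpt against Pre-IS, 15.3% of 6091 measured genes were higher (932) and 11.6% lower (707). At 8 wpt against Pre-IS, 11.2% of 5816 were higher (653) and 11.2% lower (650), and at 8 wpt against 4 wpt 10.3% of 5599 were higher (579) and 13.7% lower (767). These shares, which contain counting error, are the background for every list below.

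The chains of the IgM receptor complex were lower in B cells after the transplant. CD79B stood at 1648 CPM at Pre-IS, 626 at 4 wpt and 874 at 8 wpt. It was 2.63-fold lower at 4 wpt (2.31 to 3.01) and 1.89-fold lower at 8 wpt (1.67 to 2.14), and 1.40-fold higher at 8 than at 4 wpt (1.19 to 1.63). Its partner CD79A stood at 2021, 1225 and 1612 CPM, 1.65-fold lower at 4 wpt (1.49 to 1.82) and 1.25-fold lower at 8 wpt (1.14 to 1.38). IGHM, the constant region of the IgM heavy chain, stood at 1852, 974 and 1189 CPM, 1.90-fold lower at 4 wpt (1.70 to 2.12) and 1.56-fold lower at 8 wpt (1.40 to 1.74). All 3 genes of the IgM receptor had their highest level before immunosuppression, their lowest at 4 wpt and a level between these at 8 wpt.

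The difference was smaller or missing for other genes that define B cells. MS4A1 stood at 2327, 1639 and 1900 CPM, 1.42-fold lower at 4 wpt (1.30 to 1.55) and 1.22-fold lower at 8 wpt (1.12 to 1.34). BANK1 stood at 371, 437 and 374 CPM, with ratios of 1.18 (0.970 to 1.43) and 1.01 (0.813 to 1.25) that include no difference. By size of the 4 wpt difference the order was thus CD79B, IGHM, CD79A and MS4A1, with BANK1 not lower.

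Of the inhibitory coreceptors, CD72, a lectin-like receptor that damps receptor signalling, stood at 214 CPM at Pre-IS, 35.2 at 4 wpt and 89.2 at 8 wpt. It was 6.08-fold lower at 4 wpt (3.64 to 10.8), 2.40-fold lower at 8 wpt (1.64 to 3.58) and 2.53-fold higher at 8 than at 4 wpt (1.39 to 4.81). CD22, a sialic acid-binding receptor with a similar role, stood at 293, 147 and 250 CPM. It was 1.99-fold lower at 4 wpt (1.503 to 2.67), and at 8 wpt its 1.17-fold lower level had an interval of 0.912 to 1.52. PTPN6, the phosphatase SHP-1 that such receptors recruit, stood at 1027, 734 and 872 CPM and was under the 1.5-fold mark at both times.

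The kinases and adaptors below the receptor gave mixed values. LYN, the Src family kinase that phosphorylates the CD79 chains and the inhibitory receptors, stood at 333, 514 and 287 CPM, 1.54-fold higher at 4 wpt (1.27 to 1.87), a call lost at a log2 ratio of 0.56 with TMM scaling (library factors from a trimmed mean over genes) and of 0.44 with each cell weighted equally. PLCG2, the phospholipase that raises calcium, stood at 136, 259 and 176 CPM, 1.90-fold higher at 4 wpt (1.42 to 2.55) and 1.29-fold at 8 wpt (0.923 to 1.7999). The kinases SYK (402, 342 and 324 CPM) and BTK (117, 114 and 116) and the adaptor BLNK (75.9, 89.1 and 99.1) were within 1.5-fold of Pre-IS in these sums. With cells thinned to 1000 UMIs, BTK at 4 wpt had a log2 ratio of -0.69, past that mark. At 4 wpt, then, CD79B, CD79A, IGHM, CD22 and CD72 were at their lowest while LYN and PLCG2 were at their highest.

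Over the list of receptor and proximal signalling genes, 2 of 18 measured members were higher and 4 lower at 4 wpt, with a median log2 ratio of -0.25 against 0.04 over all measured genes. With thinned cells 1 of 17 was higher and 7 lower (-0.43), and with TMM scaling 1 of 18 was higher and 4 lower. At 8 wpt 0 were higher and 2 lower, with a median of -0.22 against 0.01. In naive B cells the same list at 4 wpt had 2 of 17 measured members higher and 0 lower, with a median of -0.01.

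**Figure D2:**
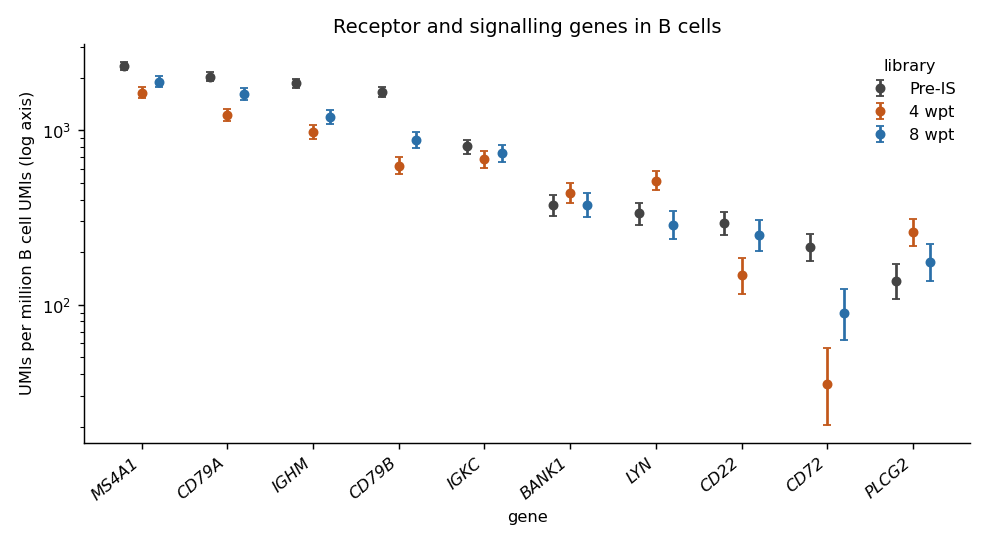
Level in B cells (CPM, log axis) of 10 receptor and signalling genes at Pre-IS, 4 wpt and 8 wpt; points are UMI sums over the B cells of 1 library and bars exact Poisson 95% intervals. CD79B, IGHM, CD22 and CD72 are lowest at 4 wpt and higher again at 8 wpt, BANK1 is level, and LYN and PLCG2 are highest at 4 wpt.

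Shares of cells with a UMI were compared after each cell had been thinned to 1000 UMIs, which left 292, 108 and 172 B cells and removed 59, 6 and 6 shallower ones. CD79B was then found in 72.9% of B cells at Pre-IS (67.5 to 78.0%), in 48.1% of those of 4 wpt (38.4 to 58.0%) and in 52.9% of those of 8 wpt (45.2 to 60.5%). Before thinning the shares were 86.6%, 79.8% and 73.0%. Thinned T cells, which should lack the gene, had it in 1.46%, 0.351% and 0.178%, and CD14+ monocytes in 0.905%, 0% and 0.299%, so free RNA at that level is far below the B cell shares. CD72 was found in 16.8%, 4.63% and 6.98% of thinned B cells, and IGHM in 68.2%, 52.8% and 50.6%. CD79A was found in 80.8%, 66.7% and 70.3%, and MS4A1 in 87.0%, 78.7% and 81.4%. The lower sums of these genes after the transplant were thus accompanied by fewer cells in which they were seen at 1 depth. BANK1 was found in 33.2%, 28.7% and 32.0% of cells.

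Naive B cells did not show the CD72 difference. In them CD72 had a ratio of 1.34 at 4 wpt against Pre-IS (0.880 to 2.005) and of 0.967 at 8 wpt (0.717 to 1.31). CD79B in naive B cells had a ratio of 0.679 at 4 wpt (0.526 to 0.866) and 0.894 at 8 wpt (0.776 to 1.03), a smaller difference than in B cells. The difference between the 2 labels was not tested. CD72 and CD79B are higher in naive cells, whose share of the B lineage also differed with time, and the part of the line drawn between the 2 labels in the result was not tested. When both labels were pooled, the CD72 log2 ratio was -1.54 at 4 wpt and -0.34 at 8 wpt, and that of CD79B at 8 wpt was -0.51.

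By the naming rule, 44 genes were higher and 26 lower in B cells at 4 wpt against Pre-IS, and up to 8 in each direction are named. LMNA, which encodes the nuclear lamins A and C, stood at 50.1, 216 and 107 CPM across Pre-IS, 4 wpt and 8 wpt, 4.31-fold higher at 4 wpt (2.83 to 6.74). It was found in 3.77%, 19.4% and 6.40% of thinned B cells, and its ratio was 0.742 in T cells and 1.05 in CD14+ monocytes. RBIS, a factor of ribosome assembly, stood at 50.1 CPM at Pre-IS and 184 at 4 wpt, 3.68-fold higher (2.40 to 5.81). The RBIS ratio was 4.55 in naive B cells, 2.71 in T cells, 2.41 in NK cells and 2.88 in CD14+ monocytes, so RBIS was higher in every class examined and LMNA was not.

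HSPA5, the chaperone BiP of the endoplasmic reticulum, stood at 39.7, 162 and 56.97 CPM, 4.07-fold higher at 4 wpt (2.53 to 6.79) and 2.84-fold lower again at 8 than at 4 wpt (1.76 to 4.74). It was found in 3.42%, 15.7% and 3.49% of thinned B cells. One cell held 29 of its 78 UMIs at 4 wpt, and without the richest cell of each library the 4 wpt ratio was 2.90 (1.71 to 5.09). Its ratio was 1.45 in T cells, 1.49 in NK cells and 1.96 in CD14+ monocytes. The other higher genes named at 4 wpt rested on few UMIs at Pre-IS: the phosphatase and coactivator EYA2 (3 UMIs at Pre-IS and 20 at 4 wpt), the vesicle protein SYT11 (4 and 23), the ciliary gene TOGARAM1 (7 and 31), the interferon-induced IFI27 (2 and 19) and RRM2 (3 and 40), a subunit of ribonucleotide reductase. Their ratios were 8.00 (2.37 to 42.1), 6.90 (2.36 to 27.5), 5.32 (2.30 to 14.3), 11.4 (2.75 to 101) and 16.0 (5.10 to 80.9), with intervals that span a wide range.

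Beside CD72 and CD79B, the lower genes at 4 wpt included FCRLA, an Fc receptor-like protein kept inside B cells. It stood at 195, 64.2 and 104 CPM, 3.04-fold lower at 4 wpt (2.02 to 4.68), and was found in 19.9%, 2.78% and 10.5% of thinned B cells. In naive B cells its 4 wpt ratio was 1.71 (0.912 to 3.08). AFF3, a nuclear factor expressed in lymphoid cells, went from 112 to 31.1 CPM, 3.61-fold lower (2.04 to 6.81). The arginine methyltransferase PRMT1 went from 117 to 37.3 CPM, 3.15-fold lower (1.85 to 5.62), and TTC24 from 27 UMIs to 2. FCRLA, CD72 and CD79B thus shared a low point at 4 wpt in B cells.

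The adaptor genes TYROBP and HCST, which encode DAP12 and DAP10 and are abundant in NK and myeloid cells, were also lower at 4 wpt. TYROBP went from 411 to 120 CPM, 3.42-fold lower (2.56 to 4.64). HCST stood at 373, 141 and 307 CPM, 2.65-fold lower at 4 wpt (2.01 to 3.53) and 2.18-fold higher at 8 than at 4 wpt (1.61 to 2.97). Their 4 wpt ratios were 0.643 and 0.612 in T cells, 0.774 and 0.671 in NK cells, and 0.739 and 0.647 in CD14+ monocytes, while naive B cells gave only 4 and 6 UMIs of them at 4 wpt. NK markers in the B label were also lowest in sum at 4 wpt. At 8 wpt their sum stood above Pre-IS, while TYROBP (238, 58 and 95 UMIs at Pre-IS, 4 and 8 wpt) and HCST stayed below it. The 7 NK markers summed to 247 CPM in B cells at Pre-IS, 33.2 at 4 wpt and 607 at 8 wpt, against 31782, 30517 and 30521 CPM in NK cells. NCR1 and FCGR3 among these were at 0 in B cells at Pre-IS and 4 wpt, and KLRD1 at 4 wpt. The 10 monocyte markers summed to 240, 168 and 186 CPM, with S100A12 at 0 at all 3 times. GZMB, which plasmacytoid dendritic cells also express, gave 67 of the 143 NK marker UMIs at Pre-IS and 149 of 245 at 8 wpt. The part of RNA from such cells in the TYROBP and HCST levels was not tested.

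**Figure D3:**
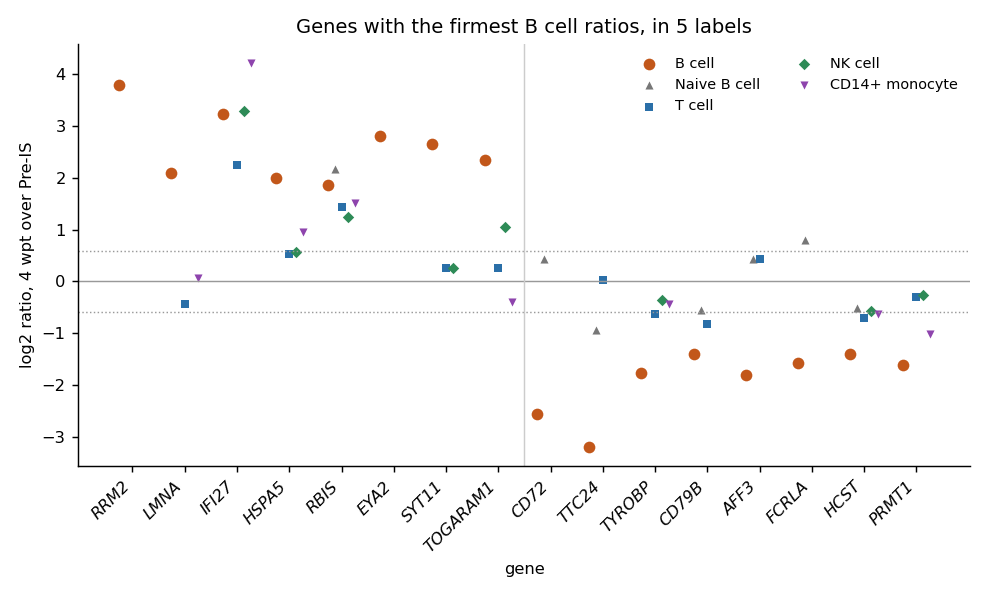
Log2 ratio of the level at 4 wpt to that at Pre-IS (y axis) for the 16 genes named in B cells (x axis). Points are shown for B cells, naive B cells, T cells, NK cells and CD14+ monocytes, and each is the ratio of UMI sums of 1 library each. RBIS and IFI27 are higher in several classes, TYROBP and HCST are lower in B, T and NK cells and CD14+ monocytes, and CD72 and FCRLA are low in B cells but not in naive B cells.

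At 8 wpt against Pre-IS, 6 genes were higher and 8 lower by the same rule. SUB1, a transcription coactivator, went from 490 to 864 CPM, 1.76-fold higher (1.503 to 2.07), and its ratio was 1.53 in naive B cells, 1.29 in T cells, 1.41 in NK cells and 1.27 in CD14+ monocytes. PLAC8, a small cysteine-rich protein of blood cells, went from 34.5 to 171 CPM, 4.95-fold higher (2.97 to 8.60). Of its 69 UMIs at 8 wpt, 58 lay in the 5 B labelled cells that had none of the 4 B cell markers, and without such cells the log2 ratio was 0.21. The same 5 cells held 82 of 149 UMIs of the granule protease GZMB and 18 of 21 of the platelet gene PF4. The PLAC8 level thus belonged mostly to cells without B cell markers. The other higher genes were COPRS, SIT1, OPLAH and C2H3orf38, with 16 to 33 UMIs at 8 wpt. The lower genes were CD79B and CD72 again, SKIV2L, an RNA helicase of the exosome pathway (25 UMIs to 3, 5.81-fold lower, 1.77 to 30.0), SLC2A6 of the glucose transporter family (53 UMIs to 11, 3.36-fold lower), NEK7, MFSD10, LRCH3 and TMEM154.

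Between 4 and 8 wpt, 12 genes were higher and 16 lower. Higher at 8 wpt were PLAC8, PPBP, RHOT1, FAM110A, HCST, CCDC117, ZNF830 and NCK1. Lower were RRM2 (40 UMIs to 2), KIAA1143 (24 to 2), the nucleolar GTPase GNL3 (25 to 3), RGS10, TOGARAM1, TNKS, LIMD1 and HSPA5. HSPA5, RRM2 and TOGARAM1 were thus named in both comparisons with 4 wpt, which share the 4 wpt library and so do not support each other. PPBP, a platelet chemokine, is 1 of 7 platelet markers that summed to 75.9, 16.6 and 203 CPM in B cells at Pre-IS, 4 and 8 wpt. It gave 17 of 44, 5 of 8 and 26 of 82 of their UMIs, so the sum moves with PPBP partly by construction. The part of platelet RNA in the PPBP level was not tested.

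Genes grouped by function are given as lists with few measured members each. Their counts are to be read against the background of 15.3% higher and 11.6% lower at 4 wpt, and of 11.2% each way at 8 wpt. Of the transcription factors of the B lineage, 2 of 16 measured were higher and 4 lower at 4 wpt (median log2 -0.13), and 1 higher and 5 lower at 8 wpt (-0.13). With cells thinned to 1000 UMIs the 4 wpt median turned to 0.29, with 3 of 15 higher and 1 lower. PAX5, which maintains B cell identity, stood at 74.2, 39.4 and 47.1 CPM, 1.88-fold lower at 4 wpt (1.08 to 3.42) and 1.58-fold lower at 8 wpt (0.900 to 2.87). Other factors of the list did not share 1 direction: EBF1 stood at 39.7, 24.9 and 24.8 CPM and FOXP1 at 102, 66.3 and 64.4, but TCF4 at 157, 211 and 166 and SPIB at 400.4, 346 and 394. XBP1, which drives the secretory programme, stood at 55.2, 108 and 66.9 CPM, 1.95-fold higher at 4 wpt (1.23 to 3.13), and IRF4, needed for plasma cell formation, at 58.7, 95.3 and 71.8, 1.62-fold higher (1.02 to 2.61). KLF2, a factor of quiescence and of traffic, stood at 744, 843 and 1033 CPM, 1.39-fold higher at 8 wpt (1.21 to 1.59), and IRF8 at 121, 135 and 188 CPM, 1.56-fold higher at 8 wpt (1.11 to 2.19). Without the cells that lacked all 4 B cell markers the IRF8 log2 ratio was 0.31, under the 1.5-fold mark.

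Of the naive and transitional B cell genes, 0 were higher and 5 lower of 11 measured at 4 wpt (median log2 -0.42) and 0 higher and 4 lower of 11 at 8 wpt (-0.36). These counts moved with the handling of depth. With cells thinned to 1000 UMIs, 6 members were measured at 4 wpt, none past 1.5-fold, with a median of -0.14, and with each cell weighted equally 2 were higher and 3 lower. IL4R, the interleukin 4 receptor, stood at 56.96, 31.1 and 24.8 CPM, 2.30-fold lower at 8 wpt (1.11 to 5.23; log2 -0.58 with thinned cells, short of 1.5-fold), and the lymph node homing receptor CCR7 at 41.4, 35.2 and 17.3 CPM.

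Of the memory genes, 3 were higher and 0 lower of 14 measured at 4 wpt (median log2 0.23) and 1 higher and 0 lower of 13 at 8 wpt (0.01). AHNAK, a giant scaffold protein beneath the membrane, stood at 751, 1446 and 726 CPM. It was 1.93-fold higher at 4 wpt (1.71 to 2.18) and 1.99-fold lower again at 8 wpt (1.74 to 2.29), and it was found in 45.2%, 68.5% and 43.0% of thinned B cells. Naive B cells had it at 107, 344 and 113 CPM (17, 16 and 20 UMIs), also highest at 4 wpt, and T cells had it in 37.2%, 39.7% and 35.2% of thinned cells. GPR183, the oxysterol receptor that places B cells in lymphoid tissue, stood at 343, 271 and 483 CPM, 1.41-fold higher at 8 wpt than at Pre-IS (1.15 to 1.72). The LIM-domain protein CRIP1 stood at 3568, 3610 and 4676 CPM, 1.31-fold higher at 8 wpt (1.23 to 1.40).

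In the list of atypical memory genes, 1 of 15 measured was higher and 2 lower at 4 wpt (median log2 -0.26), and 0 were higher and 3 lower at 8 wpt (-0.08). ITGAX, FGR and TBX21 (55.2, 53.9 and 71.8 CPM) were all within 1.5-fold of Pre-IS. LILRB1, an inhibitory receptor for MHC class I, stood at 93.2, 16.6 and 54.5 CPM, 5.62-fold lower at 4 wpt (2.66 to 13.7) and 1.71-fold lower at 8 wpt (1.02 to 2.95). ZEB2, a transcription factor of atypical B cells, stood at 330, 240 and 208 CPM, 1.58-fold lower at 8 wpt (1.22 to 2.07; log2 -0.52 with each cell weighted equally, short of 1.5-fold). FCRL5, an Fc receptor-like protein, stood at 84.6, 70.5 and 49.5 CPM, 1.71-fold lower at 8 wpt. ITGAX, FGR and TBX21 were thus within 1.5-fold of Pre-IS after the transplant, while other members of the list were lower. LILRB1 was lowest at 4 wpt, as CD72 and CD22 were.

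For survival genes, 2 of 13 measured were higher and 3 lower at 4 wpt (median log2 -0.08), and 1 higher and 2 lower of 10 at 8 wpt (-0.13). With TMM scaling 0 of 13 were higher and 3 lower at 4 wpt, so both higher calls, MCL1 among them, lay at the edge of the mark. MCL1, the BCL2 family protein on which B cell survival rests, stood at 299, 458 and 441 CPM, 1.53-fold higher at 4 wpt (1.25 to 1.88) and 1.48-fold at 8 wpt (1.19 to 1.83). CD40, the receptor for T cell help, stood at 152, 95.3 and 107 CPM, 1.59-fold lower at 4 wpt (1.10 to 2.33). TNFRSF13B stood at 154, 184 and 129 CPM, and TNFRSF13C, the BAFF receptor, gave only 15, 8 and 4 UMIs.

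Genes of antigen presentation by MHC class II had 0 higher and 1 lower of 9 measured at both times, with medians of -0.18 and -0.14. At 4 wpt the median was -0.33 with each cell weighted equally and -0.32 with thinned cells. The alpha chain MAMU-DRA stood at 6310, 6389 and 6375 CPM and the invariant chain CD74 at 23920, 21073 and 21639. MAMU-DMB, a chain of the peptide exchange factor DM, stood at 1058, 653 and 889 CPM, 1.62-fold lower at 4 wpt (1.41 to 1.86), and the master regulator CIITA at 188, 141 and 124 CPM. MAMU-DRA thus stayed flat while CD79B, in the same cells, was 2.63-fold lower at 4 wpt. The beta chain MAMU-DRB1 was less flat, with 2808, 1711 and 1683 UMIs at Pre-IS, 4 wpt and 8 wpt. With each cell weighted equally its 4 wpt log2 ratio was -0.56.

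Of the type I interferon genes, 7 were higher and 0 lower of 18 measured at 4 wpt (median log2 0.42), against a background of 15.3% higher. At 8 wpt 4 were higher and 2 lower of 16 (0.14), and at 8 against 4 wpt 0 were higher and 4 lower of 17 (-0.17). Some members were measured at 4 wpt through their counts there, such as IFI27 (2, 19 and 7 UMIs at Pre-IS, 4 wpt and 8 wpt) and PARP9 (7, 19 and 14). IFI27 was not measured at 8 wpt against Pre-IS, so the medians rest on unlike members. PARP14, an interferon-induced ADP-ribosyltransferase, stood at 34.5, 87.0 and 44.6 CPM, 2.52-fold higher at 4 wpt (1.45 to 4.53). PARP9 stood at 12.1, 39.4 and 34.7 CPM, 3.26-fold higher (1.31 to 9.17), SAMD9L at 24.2, 56.0 and 39.6, 2.32-fold higher (1.17 to 4.78), and the antiviral GTPase MX2 at 50.1, 93.3 and 52.0, 1.86-fold higher (1.14 to 3.08). Other members were level: MX1 stood at 48.3, 60.1 and 49.5 CPM and IFI6 at 129, 135 and 107. The same list at 4 wpt had 15 higher and 0 lower of 31 in T cells (0.51), 8 and 0 of 24 in NK cells (0.37) and 11 and 0 of 24 in CD14+ monocytes (0.43). The direction in B cells was therefore also seen in other classes, and naive B cells, with 14 cells at 4 wpt, had 1 higher and 2 lower of 5.

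Interferon gamma genes gave 2 higher and 2 lower of 9 measured at 4 wpt (median log2 -0.09) and 1 higher and 2 lower of 9 at 8 wpt (-0.12). IRF1, a transcription factor of the interferon response, stood at 93.2, 151 and 102 CPM, 1.62-fold higher at 4 wpt (1.13 to 2.35), and at a log2 ratio of 0.54, short of 1.5-fold, with each cell weighted equally.

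Genes induced by glucocorticoids, which are listed because these hormones are common immunosuppressants, had 2 higher and 1 lower of 8 measured at 4 wpt (median log2 0.31) and 0 higher and 1 lower of 7 at 8 wpt (-0.17). FKBP5, a co-chaperone of the glucocorticoid receptor, stood at 31.1, 80.8 and 34.7 CPM, 2.60-fold higher at 4 wpt (1.45 to 4.83) and at a ratio of 1.12 at 8 wpt. TSC22D3, the leucine zipper protein GILZ, stood at 590, 676 and 503 CPM, within 1.5-fold at both times. At 4 wpt the list had 4 higher and 0 lower of 12 in T cells (0.18) and 3 and 0 of 8 in NK cells (0.54).

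Immediate early genes, which respond within minutes to stimulation and to handling, had 2 higher and 2 lower of 10 measured at 4 wpt (median log2 0.02) and 1 higher and 1 lower of 10 at 8 wpt (0.20). JUN stood at 39.7, 99.5 and 52.0 CPM, 2.51-fold higher at 4 wpt (1.49 to 4.32), and KLF6 at 274, 419 and 305, 1.53-fold higher (1.23 to 1.89), a call lost with TMM scaling (log2 0.55). The RNA-binding ZFP36 went the other way, at 456, 245 and 424 CPM and 1.86-fold lower at 4 wpt (1.49 to 2.34). NF-kB targets had 1 higher and 1 lower of 8 measured at both times, with medians of 0.07 and 0.02, and their feedback inhibitor NFKBIA stood at 72.5, 120 and 94.1 CPM, 1.66-fold higher at 4 wpt (1.10 to 2.53), or at log2 0.52 without the deepest B cell of each library. No common direction was seen in either list.

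Of the homing and positioning receptors, 1 was higher and 0 lower of 13 measured at 4 wpt (median log2 -0.0014) and 1 higher and 2 lower of 12 at 8 wpt (-0.03). ITGA4, the alpha 4 integrin that binds VCAM-1 and MAdCAM-1, was the higher one at both times. It stood at 79.4, 151 and 156 CPM, 1.91-fold higher at 4 wpt (1.30 to 2.82) and 1.97-fold at 8 wpt (1.32 to 2.94). With cells thinned to 1000 UMIs its 8 wpt log2 ratio was 0.34, short of 1.5-fold. The follicle-homing receptor CXCR5 stood at 65.6, 53.9 and 42.1 CPM and the egress receptor S1PR1 at 112, 112 and 74.3. With thinned cells S1PR1 had a log2 ratio of -0.77 at 4 wpt, and the list had 2 higher and 2 lower of 9.

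**Figure D4:**
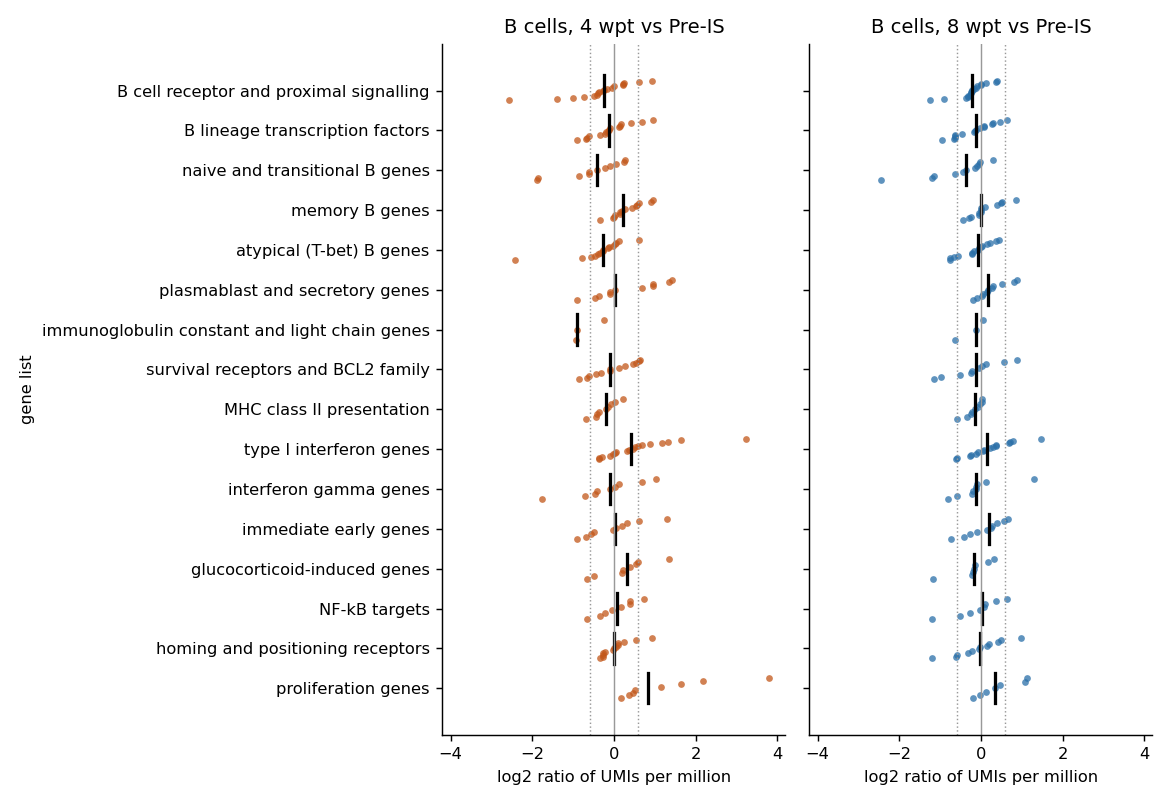
Log2 ratio of the B cell level at 4 wpt (first panel) and 8 wpt (second panel) to that at Pre-IS (x axis) for each measured member of 16 gene lists (y axis); each point is 1 gene, black ticks are list medians and dotted lines mark 1.5-fold. Proliferation and type I interferon genes lie to the right at 4 wpt with medians of 0.84 and 0.42, and naive genes to the left with -0.42. Measured members differ between the panels, and some, such as RRM2 and IFI27, were measured through their 4 wpt counts.

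Proliferation genes had 4 higher and 0 lower of 8 measured at 4 wpt (median log2 0.84) and 2 higher and 0 lower of 7 at 8 wpt (0.33). RRM2 (3, 40 and 2 UMIs at Pre-IS, 4 wpt and 8 wpt) and CENPF (10, 39 and 15) were measured at 4 wpt through their counts there. RRM2 was not measured at 8 wpt against Pre-IS, so the 2 medians rest on unlike members. STMN1, a microtubule regulator, stood at 36.2, 114 and 79.3 CPM, 3.14-fold higher at 4 wpt (1.87 to 5.47) and 2.19-fold at 8 wpt (1.22 to 3.99). PCNA, the sliding clamp of DNA replication, stood at 43.1, 97.4 and 59.4 CPM, 2.26-fold higher at 4 wpt (1.36 to 3.83), and the mitotic protein CENPF at 17.3, 80.8 and 37.2, 4.68-fold higher (2.30 to 10.5). Without thinning, and so at unlike depths, PCNA was seen in 6.84%, 23.7% and 12.4% of B cells and CENPF in 2.56%, 19.3% and 7.87%. RRM2 and STMN1 lay in fewer at 4 wpt (10.5% and 14.9%). The richest cell held 11 of 47 PCNA UMIs at 4 wpt. With each cell weighted equally, the 8 to 4 wpt log2 ratio of PCNA went from -0.70 to -0.0064. The deepest B cell at 4 wpt, with 18607 UMIs and 3876 genes, held 23 of the 40 RRM2 UMIs and 16 of 55 STMN1 UMIs, and the proliferation marker MKI67 gave 1, 12 and 1 UMIs. Without the deepest B cell of each library the list still had 4 higher and 0 lower of 8 at 4 wpt, with a median of 0.55. With each cell weighted equally it had 4 higher and 0 lower of 8 at 4 wpt (0.56). At 8 wpt it then had 4 higher and 0 lower of 7 (0.73). The 8 to 4 wpt median was then -0.0064, against -0.60 in the main sums. With thinned cells only 3 members were measured, with medians of 1.16 at 4 wpt and 0.88 at 8 wpt. The 4 wpt level relative to 8 wpt thus depended on how cells were weighted. At 4 wpt the list had 4 higher and 0 lower of 14 in T cells (0.23) and 5 and 0 of 10 in NK cells (0.58).

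In the secretory list, 5 of 11 measured members were higher and 1 lower at 4 wpt (median log2 0.02), and 2 higher and 0 lower at 8 wpt (0.18). HSP90B1, an endoplasmic reticulum chaperone, stood at 161, 433 and 282 CPM, 2.70-fold higher at 4 wpt (2.10 to 3.48) and 1.76-fold at 8 wpt (1.33 to 2.34). The protein disulfide isomerase PDIA4 stood at 48.3, 124 and 42.1 CPM, 2.57-fold higher at 4 wpt (1.62 to 4.19), and SEC11C, a signal peptidase subunit, at 89.7, 176 and 129, 1.96-fold higher (1.37 to 2.83). HSP90B1, PDIA4 and SEC11C were thus highest at 4 wpt, as HSPA5 and XBP1 were. Other members were not: SSR4 of the translocon stood at 281, 286 and 310 CPM, MZB1 at 169, 131 and 173, DERL3 at 72.5, 51.8 and 81.7, TNFRSF17 gave 13, 10 and 17 UMIs and SDC1 0, 2 and 0. MZB1 was uncertain in direction, since 1 cell held 37 of its 98 UMIs at Pre-IS and without the deepest B cells its 4 wpt log2 ratio was 0.27.

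JCHAIN, which joins IgM and IgA into polymers, shows how 1 cell can set a level in these sums. It stood at 1212, 642 and 1256 CPM, from 702, 310 and 507 UMIs, which is 1.89-fold lower at 4 wpt. At Pre-IS 1 cell, the deepest B cell there with 9940 UMIs and no UMI of MS4A1 or CD79B, held 499 of the 702 UMIs (71.1%), and the richest cell held 32.6% at 4 wpt and 40.6% at 8 wpt. Without the richest cell of each library JCHAIN was 1.23-fold higher at 4 wpt (1.01 to 1.503) and 2.13-fold higher at 8 wpt (1.77 to 2.55), so its direction at 4 wpt turned. The 8 wpt direction also depended on the cells used. The 8 wpt log2 ratio to Pre-IS was 1.65 without the deepest B cell of each library. It was -0.71 with possible doublets left out. At least 10 JCHAIN UMIs were found in 8, 6 and 9 cells (2.28%, 5.26% and 5.06%). The 5 plasma cell markers summed to 1476, 850 and 1553 CPM, most of it JCHAIN, and without the deepest B cell of each library the secretory list had 6 higher and 0 lower of 10 at 4 wpt, with a median of 0.69. CD79B, by contrast, did not hang on 1 cell, with 1.47%, 3.31% and 2.55% of its UMIs in the richest cell and a 2.65-fold lower level at 4 wpt without it. For CD72 the level without the richest cells was 8.20-fold lower and for IGHM 1.99-fold lower.

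**Figure D5:**
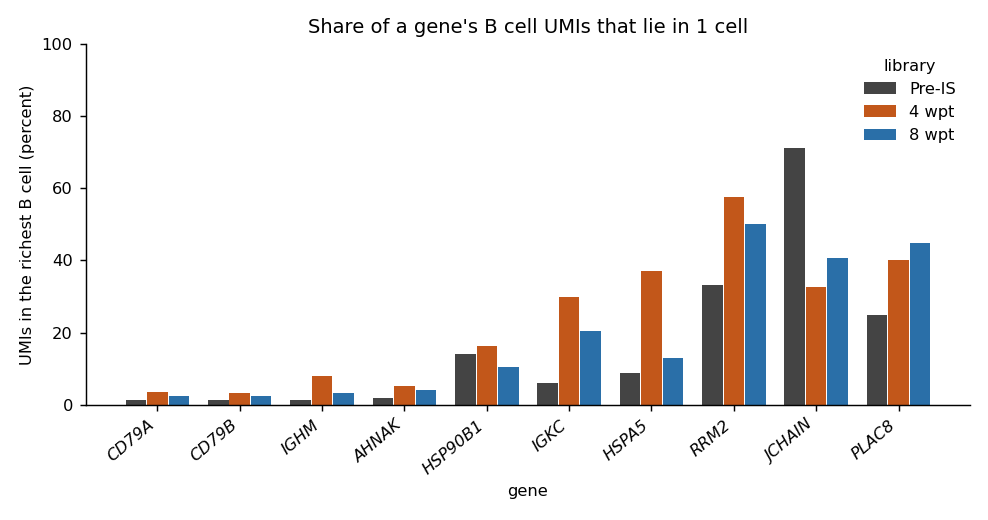
Percent of a gene's B cell UMIs that lie in the single richest B cell (y axis) for 10 genes (x axis) at Pre-IS, 4 wpt and 8 wpt; bars start at 0 and each is 1 library. CD79A, CD79B and AHNAK are spread over many cells, with at most 5.30% in 1 cell, while JCHAIN has 71.1% in 1 cell at Pre-IS and RRM2 57.5% at 4 wpt.

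The constant and light chain list had 3 measured members, IGHM, JCHAIN and IGKC, of which 0 were higher and 2 lower at 4 wpt (median log2 -0.91, the value of JCHAIN) and 0 higher and 1 lower at 8 wpt (-0.13). Without the deepest B cell of each library 1 was higher and 1 lower at both times (-0.21 and -0.46), and with thinned cells the 4 wpt median was -0.06. Genes for IgD, IgG, IgA and lambda constant regions were not analysed here, so class switching cannot be read from these values. The kappa constant gene IGKC stood at 806, 682 and 736 CPM, 1.18-fold lower at 4 wpt (1.02 to 1.37), with 6.00%, 29.8% and 20.5% of its UMIs in 1 cell. Without those cells it was 1.56-fold lower. Both IGHM and IGKC were therefore lower at 4 wpt once the richest cells were left out.

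UMIs of immunoglobulin variable genes lay in a minority of B cells, 66 of 351 at Pre-IS, 25 of 114 at 4 wpt and 42 of 178 at 8 wpt. Over 19 such genes B cells held 552, 735 and 1008 UMIs. At 4 wpt 1 cell, the same deepest cell that held 23 RRM2 UMIs and 29 HSPA5 UMIs, had 337 of 354 UMIs of the lambda gene IGLV3-10, and at 8 wpt 1 cell had 427 of 450 UMIs of IGLV10-54. Cells with at least 10 UMIs of 1 variable gene numbered 21 of 351 at Pre-IS (5.98%), 13 of 114 at 4 wpt (11.4%) and 26 of 178 at 8 wpt (14.6%). Cells were deeper after the transplant, and the part of depth in these shares was not tested.

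Markers of other cell types inside the B label had levels that moved with time. The 8 T cell markers summed to 230, 110 and 173 CPM in B cells, against 5396, 4930 and 4909 in T cells, with CD5 at 0. Hemoglobin and other red cell genes (6 markers) summed to 242, 80.8 and 1444 CPM, and at 8 wpt 1 cell held 340 of 577 UMIs of HBA. Plasmacytoid dendritic cell markers summed to 297, 259 and 577 CPM, with CLEC4C and SERPINF1 at 0. Of their 172, 125 and 233 UMIs, TCF4, which is also on the B lineage list, gave 91, 102 and 67, and GZMB 67, 4 and 149. This sum is thus no measure of plasmacytoid dendritic cell RNA alone. Each of these sums except that of T cells was highest at 8 wpt. B labelled cells with UMIs of at least 2 T cell or 3 monocyte markers, which could be doublets, numbered 11, 8 and 11.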

How the data were processed

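The libraries were 10x Genomics 5' V1, per the labels' protocols, and the build was Mmul_10, with Seurat 3.2.3 and Cell Ranger 3.1.0 as tools, per the submitters' processing notes. The authors deposited, per library, raw UMI counts with no normalisation (15354 gene rows) and a cell type label per barcode, 9 labels in all. How cells were filtered, doublets treated and labels made is not given in the sources used here, and no doublet caller was run. Of 2559 rows without a symbol, 400, CD79A among them, were named from a RefSeq-based table. Counts were summed over B cells per library (Python 3.11.15, numpy 2.4.6, pandas 2.3.3, scipy 1.17.1). Ratio intervals are exact conditional binomial intervals, level intervals exact Poisson and share intervals Clopper-Pearson, all at 95%. TMM factors came from edgeR 4.0.16 (R 4.3.3), used as an alternative scaling only. Named genes had a ratio interval beyond 1.5-fold, at least 20 UMIs and UMIs in 5% of B cells of 1 library, ranked by the interval bound nearest to 1, at most 8 per direction. Passed over were ribosomal, mitochondrial, hemoglobin and antigen receptor genes, genes without a symbol and genes under 10% of their level in the highest class. The 16 lists and the cells were chosen with earlier results of these data known. The scripts were tested on simulated data.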

Additional observations from a re-analysis of the deposited data

How the results depend on the processing

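Each comparison rests on 1 library per time, so no alternative can show the spread between animals. No paired analysis was possible because each group has 1 library. Of 77 pairings of a main result with an alternative, 59 left the value within its counting interval, or a count of genes within 1.5-fold. Values could still differ: with cells of at least 1000 UMIs only, the Post-IS share was 3.13%. The ratio to Post-IS was then 1.95 at 4 wpt (1.05 to 4.02) and 2.23 at 8 wpt (1.22 to 4.55), and the Post-IS to Pre-IS ratio 0.180 (0.0889 to 0.327). With the naive label pooled in, the B share was 23.9% at Pre-IS and 10.7% at 8 wpt, and the 8 to 4 wpt ratio 1.58. Among lymphocytes the shares were 22.4%, 8.63%, 8.58% and 8.32%, the Post-IS to Pre-IS ratio 0.385, and the ratios to Post-IS turned to 0.994 at 4 wpt and 0.963 at 8 wpt. Genes past 1.5-fold numbered 1639 at 4 wpt, 1303 at 8 wpt and 1346 between them. With at least 50 UMIs required they were 602, 374 and 418, with no minimum 5289, 4786 and 5167, since fewer or more genes were then measured, and with thinned cells 1040 at 4 wpt and 635 between 4 and 8 wpt. TMM scaling moved the higher share of the 4 wpt calls from 56.9% to 48.8%. For JCHAIN at 4 wpt the log2 ratio of -0.91 became 0.51 with each cell weighted equally, 0.44 with thinned cells and 0.74 without the deepest cell of each library, and between 4 and 8 wpt 0.97 became -0.0089 with thinned cells. BCL11A at 4 wpt went from -0.69 to 0.47 with thinned cells, and the cause was not tested. Of values for single genes, 107 moved outside their counting interval, 5 past 1.5-fold (those of JCHAIN and BCL11A) turned, and 2885 did neither. Among the 2885 are 228 from the minimum of 50 UMIs and 284 from no minimum. These settings only change which genes are measured, so those values could not move and say nothing on stability. Depth limits the genes with few UMIs most, such as the transcription factors, whose intervals often include no difference.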
